A study of Mus musculus with 10 samples.

Results

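The genes described here encode the presynaptic machinery that releases transmitter from synaptic vesicles. They were a fixed list of 41 genes, each read from its brightest row among the array rows that named it alone, and all 41 had such a row among the 30142 genes tested. RNA came from brain tissue of adult mice, 8 to 12 weeks old, which the labels call male and female. The tissue was taken 7 days after a 2 mm controlled cortical impact on 1 side, a model of brain trauma in which a piston hits the cortex. The ipsilateral group (5 samples) was tissue at the impact site, and the contralateral group (5 samples) was the corresponding region of the opposite hemisphere. Animals of both groups had thus received the impact, and no sham-operated or unimpacted mice were analysed here. The labels name no strain, and they do not say whether samples with the same replicate number came from 1 mouse. They call the 5 samples of a side biological replicates, without saying that each came from its own mouse.

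In a nerve terminal, vesicles filled with transmitter are tethered at the active zone by scaffold proteins, primed for fusion, and fused with the plasma membrane by SNARE proteins when calcium binds a synaptotagmin. The long forms of RIM proteins hold the vesicle, the priming factor Munc13 and the calcium channels together. Complexins clamp and assist the SNARE bundle, and NSF with its SNAP partners takes the bundle apart after fusion. Most of these proteins exist as several related genes that are used by different neurons, so that one family member can mark a cell class while another is shared by nearly all neurons.

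The values, from 1 whole-transcript array per sample, are the deposited log2 signals, on which a difference of 1 is a doubling. Array medians over all rows lay between 4.79 and 4.84 ipsilaterally and between 4.71 and 4.77 contralaterally. Mean levels of the 41 genes ran from 5.64 (Slc17a8) to 18.3 (Snap25), so none lay below an array's median. As a check of the tissue, the pan-neuronal genes Map2 (14.58 ipsilaterally, 14.44 contralaterally) and Stmn2 (15.67 and 15.68) were bright on both sides. This does not show equal neuronal content, since 4 of 11 pan-neuronal markers were called lower ipsilaterally and 0 higher, as given below. The arrays did not show the 2 sexes that the labels name: Xist read 4.53 to 4.67 on all 10 arrays and 3 Y-linked genes read 7.75 to 8.88. Xist thus lay below every array's median, and all 10 arrays had a male pattern. A pair of arrays often stood nearer to the opposite side than the rest of their group did. Contralateral replicate 4 was the contralateral array closest to the ipsilateral ones for 9 of the 14 genes called below, and it stood apart in the mean signal of thalamic markers (8.12, other contralateral arrays 7.08 to 7.26), oligodendrocyte markers (10.67, others 11.56 to 11.89) and ventral forebrain markers (6.74, others 6.15 to 6.28). Ipsilateral replicate 1 was the ipsilateral array closest to the other side for 7 of the 14, and its microglial and macrophage mean (8.06) lay inside the contralateral range of 7.71 to 8.36.

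All 4 RIM genes and several priming, calcium sensor and SNARE genes were lower at the impact site, while 3 synaptotagmin and Doc2 genes and 1 synapsin gene were higher. Of the 41 genes, 10 fell and 4 rose, and 27 did not pass the test (limma, Benjamini-Hochberg adjusted p under 0.05 over all 30142 genes). The 10 that fell were all 4 RIM genes (Rims1, Rims2, Rims3, Rims4), bassoon (Bsn), Munc13-1 (Unc13a), the synaptotagmins Syt2 and Syt7, the plasma membrane SNARE syntaxin 1A (Stx1a) and the vesicle SNARE Vamp1. The 4 that rose were Syt10, Syt17, Doc2b and synapsin II (Syn2). Of all genes tested, 5.55% were called, 4.33% lower and 1.22% higher, against 24.4% and 9.76% of the 41. The 41 genes were chosen with earlier results of these data known, so these shares describe them and are not independent evidence. Rises made up 22.0% of all calls, and 8.13% where each array was first centred on its median, a setting with which 17 of the 41 genes fell and the same number, 4, rose. Brighter genes were called lower more often: of the 8057 genes with a mean log2 signal of at least 8, 11.6% fell and 1.87% rose, and of the 36 release genes at that level, 9 fell and 4 rose. The median log2 difference was -0.22 over the 41 genes and 0.02 over all genes, with 30 of the 41 below 0. At an unadjusted p under 0.05, 3400 of all 30142 genes (11.3%) were lower and 3020 higher, the background of each unadjusted count given here, and 18 of the 41 were lower and 5 higher. In bulk tissue, fewer cells of a type and less RNA per cell cannot be told apart.

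**Figure D1:**
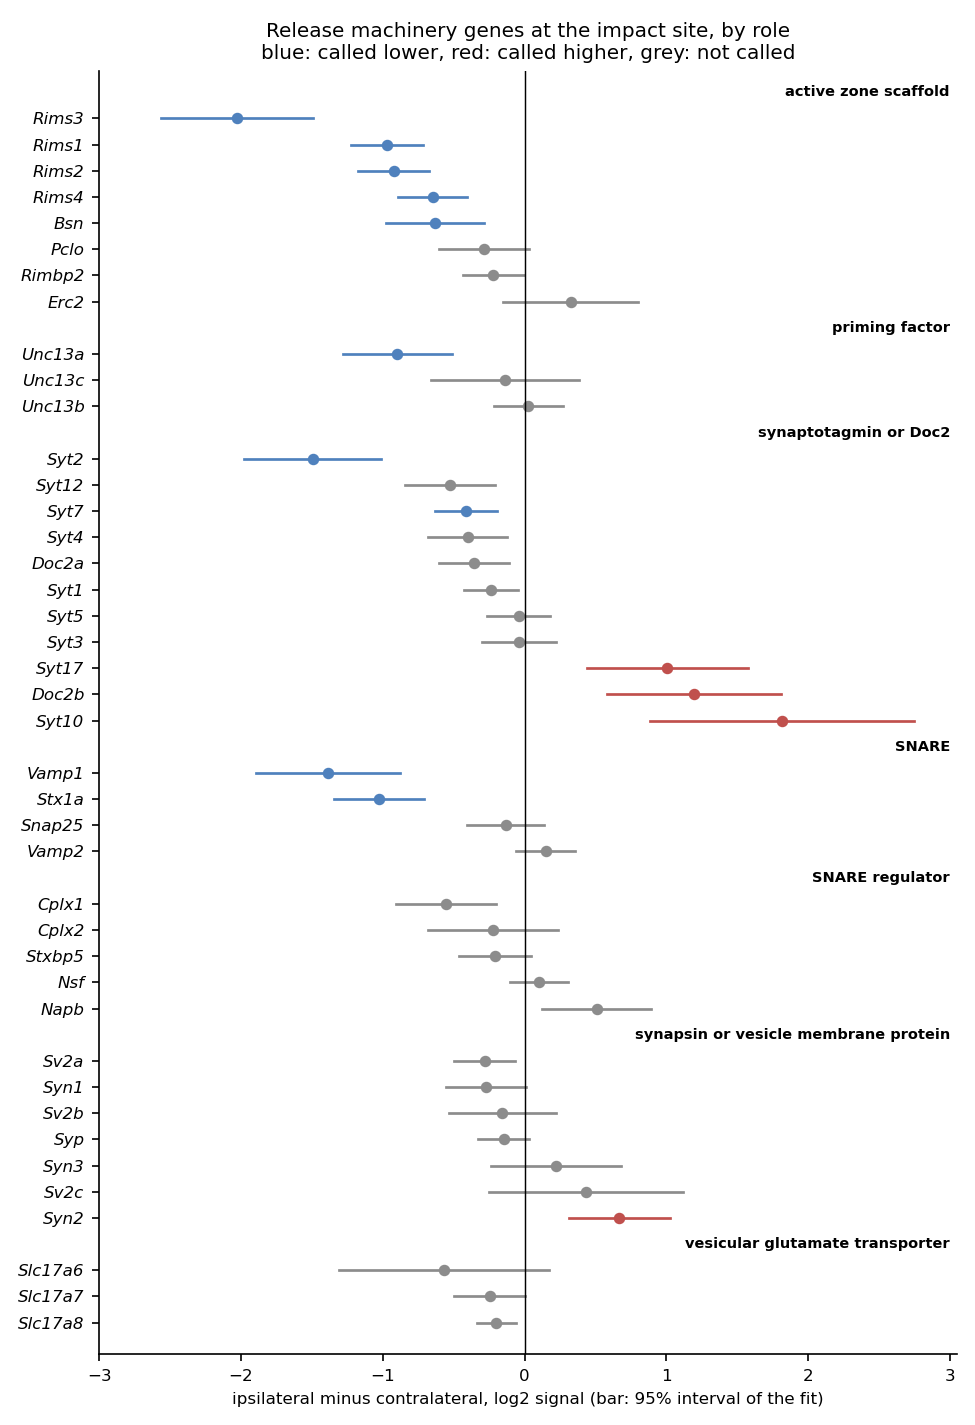
Ipsilateral minus contralateral difference in log2 signal for each of the 41 release genes (points) with its 95% interval from the limma fit (bars), grouped by role; n = 5 arrays per side. The 10 genes called lower reach from -0.41 (Syt7) to -2.03 (Rims3), and the 4 called higher from 0.67 (Syn2) to 1.81 (Syt10).

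The groups did not overlap for any of the 10 falling genes, and 1 further gene, Slc17a8, was also lower on every ipsilateral array. Non-overlapping lower groups were found for 5.21% of all genes and non-overlapping higher groups for 2.04%. None of the 4 rising genes had groups that were fully apart. In 8 of the 10 falls (the RIM genes, Unc13a, Syt2, Stx1a and Vamp1) the call held under all 17 alternative settings, which included each array left out in turn. The falls of Bsn and Syt7 and all 4 rises did not hold under all of them.

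Promoter windows of called members from both ends of the range are shown. RefSeq windows of GRCm38.p6, reaching from 250 bases before to 50 bases after an annotated start, were found for 29 of the 41 genes and 9 of the 14 called ones. Shown are the 3 largest falls and the largest rise among called genes with a single window: Rims3 (chr4:120854549-120854848, plus strand), Vamp1 (chr6:125215331-125215630, plus strand), Stx1a (chr5:135023232-135023531, plus strand) and Syt10 (chr15:89841811-89842110, minus strand). Each reads 5′ to 3′ on the gene's strand, and capitals mark matches, on either strand, to any of 4 motifs: the GC box GGGCGG, the cyclic AMP response element TGACGTCA, the Egr motif GCGTGGGCG and the TATA box TATAAA. An Egr match followed by G also holds a GC box.
Rims3: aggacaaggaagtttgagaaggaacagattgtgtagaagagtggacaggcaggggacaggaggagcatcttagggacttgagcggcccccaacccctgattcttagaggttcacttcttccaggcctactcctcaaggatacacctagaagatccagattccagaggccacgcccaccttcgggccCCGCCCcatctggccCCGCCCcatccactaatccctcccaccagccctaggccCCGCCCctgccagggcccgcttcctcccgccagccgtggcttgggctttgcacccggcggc
Vamp1: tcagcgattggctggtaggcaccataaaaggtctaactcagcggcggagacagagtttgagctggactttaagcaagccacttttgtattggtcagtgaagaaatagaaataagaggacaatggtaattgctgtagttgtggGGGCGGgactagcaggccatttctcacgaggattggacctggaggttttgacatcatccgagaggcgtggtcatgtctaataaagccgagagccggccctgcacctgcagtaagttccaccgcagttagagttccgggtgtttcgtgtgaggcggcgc
Stx1a: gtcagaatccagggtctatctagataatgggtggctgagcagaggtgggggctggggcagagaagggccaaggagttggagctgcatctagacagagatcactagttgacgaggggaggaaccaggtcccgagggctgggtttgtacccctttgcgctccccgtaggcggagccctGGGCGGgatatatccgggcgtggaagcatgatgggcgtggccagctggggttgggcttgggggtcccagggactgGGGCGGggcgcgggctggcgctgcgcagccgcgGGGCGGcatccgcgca
Syt10: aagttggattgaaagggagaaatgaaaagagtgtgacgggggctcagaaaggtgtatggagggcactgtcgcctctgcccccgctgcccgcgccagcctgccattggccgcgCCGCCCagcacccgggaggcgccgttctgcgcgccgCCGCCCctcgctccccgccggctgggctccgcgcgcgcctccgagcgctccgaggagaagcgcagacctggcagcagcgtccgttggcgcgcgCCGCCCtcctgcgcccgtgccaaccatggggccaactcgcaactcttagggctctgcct
All capitals in these 4 windows are GC boxes, 3 in Rims3, 1 in Vamp1, 3 in Stx1a and 3 in Syt10. A GC box was found in 7 of 8 windows of the falling genes, in 2 of 3 windows of the rising genes, in 59.5% of the 37 windows of all release genes and in 35.7% of the 32851 windows in the table. The falling genes had a median of 26.5 CG dinucleotides per window, the rising genes 21, the release genes 17 and all windows 7. Of the 4 windows shown, that of the rising gene Syt10 held the most (35), with 11 in Rims3, 14 in Vamp1 and 19 in Stx1a. The Egr motif was in 1 of 8 windows of the falling genes, the only match in the 37 release gene windows, and in 0.612% of all windows. The TATA box was in 2 of the 37 release gene windows and in 13.6% of all windows. The response element was in 1 of the 37 and in 1.79% of all windows. These matches describe letters in the windows, and no factor binding was measured.

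The RIM genes gave the largest group of falls. Rims3 encodes a short RIM that keeps only the C-terminal C2 domain, and its ipsilateral replicates 1 to 5 read 9.15, 8.07, 8.70, 8.24 and 7.98, and contralateral replicates 1 to 5 read 10.57, 10.51, 10.53, 9.83 and 10.85. Every ipsilateral array was thus below every contralateral one, with ipsilateral replicate 1 and contralateral replicate 4 the nearest to each other. Rims3 stood at 8.43 ± 0.49 against 10.46 ± 0.38 (mean ± SD, n = 5 per side), a log2 difference of -2.03 ± 0.24 (SE of the fit), that is 4.08-fold lower ipsilaterally, with a limma adjusted p of 0.00161. It was the most negative difference among the 41 genes.

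Rims1 encodes the long RIM that binds Rab3 on the vesicle, Munc13 and calcium channels. Its ipsilateral replicates 1 to 5 read 11.36, 11.88, 11.85, 11.64 and 11.44, and contralateral replicates 1 to 5 read 12.82, 12.45, 12.47, 12.67 and 12.61, and it fell by 0.97 ± 0.12 (adjusted p = 0.00161). The other long RIM gene, Rims2, was also lower: ipsilateral replicates 1 to 5 read 11.05, 10.67, 10.81, 10.49 and 10.53, and contralateral replicates 1 to 5 read 11.76, 11.62, 11.56, 11.43 and 11.80, a fall by 0.92 ± 0.11 (adjusted p = 0.00179). Here ipsilateral replicate 1 was the highest of its side in Rims2 but the lowest in Rims1, so the arrays did not keep 1 order across the family. Rims4 encodes another short RIM, and its ipsilateral replicates 1 to 5 read 8.19, 7.71, 7.94, 7.79 and 8.05, and contralateral replicates 1 to 5 read 8.55, 8.50, 8.64, 8.38 and 8.85. It fell by 0.65 ± 0.11 (adjusted p = 0.00757), with ipsilateral replicate 1 again the highest of its side.

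Among the other scaffolds, bassoon, a giant protein that organises the active zone, was lower. For Bsn, ipsilateral replicates 1 to 5 read 11.44, 11.62, 11.63, 11.10 and 10.85, and contralateral replicates 1 to 5 read 12.04, 11.74, 12.02, 12.19 and 11.81, and it fell by 0.63 ± 0.16 (adjusted p = 0.0421). The lowest contralateral array (11.74) lay just above the highest ipsilateral one (11.63). The call of Bsn ended without ipsilateral replicate 4 or 5 or any 1 of the 5 contralateral replicates, with adjusted p from 0.0518 to 0.103. Its close relative piccolo (Pclo) had a difference of -0.29 ± 0.14 (adjusted p = 0.283), the RIM-binding protein gene Rimbp2 one of -0.22 ± 0.10 (adjusted p = 0.226), and Erc2, a scaffold that binds RIM and bassoon, one of 0.33 ± 0.22 (adjusted p = 0.428), and none of the 3 passed. Of the 8 scaffold genes, 5 fell and none rose in limma, with 6 lower and 0 higher at an unadjusted p under 0.05. The short RIM genes Rims3 and Rims4 are counted among them.

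The priming step was represented by the 3 Munc13 genes. Unc13a encodes Munc13-1, the main priming factor of forebrain synapses, and its ipsilateral replicates 1 to 5 read 11.40, 11.29, 11.38, 10.84 and 10.48, and contralateral replicates 1 to 5 read 12.22, 11.81, 11.95, 11.99 and 11.90. Ipsilateral replicates 4 and 5 were the lowest, and no ipsilateral array reached the contralateral range. The fall was 0.90 ± 0.17, or 1.86-fold (adjusted p = 0.0142). Unc13b (Munc13-2) had a difference of 0.03 ± 0.11 and Unc13c (Munc13-3) one of -0.14 ± 0.24, with adjusted p of 0.922 and 0.800.

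Calcium sensors moved in both directions: of 11 synaptotagmin and Doc2 genes, 2 fell, 3 rose and 6 did not pass. Syt2 encodes a fast calcium sensor, used by fast-spiking interneurons in the forebrain and widely in the brainstem. For Syt2, ipsilateral replicates 1 to 5 read 6.65, 7.07, 7.06, 7.16 and 7.20, and contralateral replicates 1 to 5 read 8.53, 8.84, 8.65, 7.66 and 8.93. No ipsilateral array exceeded 7.20, and contralateral replicate 4, at 7.66, was the lowest of its side. Syt2 stood at 7.03 ± 0.22 against 8.52 ± 0.51, a fall by 1.49 ± 0.22 or 2.82-fold (adjusted p = 0.00362). The interneuron marker Pvalb, the calcium-binding protein of fast-spiking cells, was lower as well (-1.84 ± 0.26, adjusted p = 0.00305). The GABA-synthesising enzyme genes Gad1 (0.21, adjusted p = 0.855) and Gad2 (0.60, adjusted p = 0.332) did not pass. Ipsilateral replicate 1 stood apart in Gad1 (14.65, other ipsilateral arrays 11.72 to 12.35, contralateral 12.01 to 12.42) and in the interneuron transcription factor gene Dlx1 (9.79, others 6.79 to 7.19). In all, 3 of 11 inhibitory neuron markers fell and none rose in limma (4 lower and 0 higher at an unadjusted p under 0.05). Their mean signal was 10.47 on ipsilateral replicate 1 and 9.28 to 9.67 on the other 4 ipsilateral arrays, which all lay below the contralateral range of 9.69 to 10.06. Their part in the Syt2 difference was not tested.

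Syt7 encodes a high-affinity calcium sensor linked to asynchronous release and vesicle replenishment. Its ipsilateral replicates 1 to 5 read 11.62, 11.47, 11.55, 11.27 and 11.26, and contralateral replicates 1 to 5 read 11.75, 11.74, 11.79, 12.13 and 11.81. The fall was small, 0.41 ± 0.10 (adjusted p = 0.0377), and contralateral replicate 4 was the highest array. The call ended when any 1 array other than ipsilateral replicate 1 or 3 was left out, with adjusted p from 0.0540 to 0.0877. The remaining members of the family below 0 did not pass. These were Syt12 (-0.52 ± 0.14, adjusted p = 0.0605), which lacks calcium binding and passed under 5 of the 17 alternatives, Syt4 (-0.40 ± 0.13, 0.0972), a synaptotagmin of peptide-containing vesicles, Doc2a (-0.36 ± 0.11, 0.0953) and the main fast sensor of forebrain synapses, Syt1 (-0.24 ± 0.09, 0.146). Syt3 (-0.04) and Syt5 (-0.04) were close to 0, and the sign of both turned under some settings.

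Syt10, Syt17 and Doc2b rose. Syt10, a calcium sensor best known for regulated growth factor secretion from olfactory bulb neurons, had the largest rise of the 41 genes: ipsilateral replicates 1 to 5 read 13.58, 12.69, 12.73, 12.84 and 12.90, and contralateral replicates 1 to 5 read 10.64, 10.39, 11.26, 12.86 and 10.52. Contralateral replicate 4 reached the ipsilateral range, whereas the other 4 contralateral arrays lay at or below 11.26. The highest array, ipsilateral replicate 1, was also the one that stood apart in Gad1, Dlx1, Dlx2 and Calb2. The part of those signals in its Syt10 value was not tested. Syt10 stood at 12.95 ± 0.36 against 11.13 ± 1.02, a rise of 1.81 ± 0.42 or 3.52-fold (adjusted p = 0.0325). Syt17, also known as B/K protein, also had its highest contralateral value on replicate 4: ipsilateral replicates 1 to 5 read 11.69, 12.44, 12.41, 11.89 and 11.62, and contralateral replicates 1 to 5 read 10.61, 10.53, 10.98, 11.85 and 11.05, a rise of 1.01 ± 0.26 (adjusted p = 0.0479). Doc2b encodes a high-affinity calcium-binding protein linked to spontaneous release, and its ipsilateral replicates 1 to 5 read 8.01, 9.32, 9.33, 8.87 and 8.74, and contralateral replicates 1 to 5 read 7.04, 7.73, 7.89, 8.23 and 7.39. Its rise was 1.20 ± 0.28, or 2.29-fold (adjusted p = 0.0321), and ipsilateral replicate 1 was the single ipsilateral array inside the contralateral range.

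The fourth rise was in synapsin II, a protein on the vesicle surface that holds vesicles in reserve. For Syn2, ipsilateral replicates 1 to 5 read 12.19, 12.63, 12.69, 12.36 and 12.23, and contralateral replicates 1 to 5 read 11.51, 11.44, 11.92, 12.24 and 11.65. Contralateral replicate 4 again lay with the ipsilateral arrays, and the rise was 0.67 ± 0.16 (adjusted p = 0.0377). This array was the highest contralateral one for all 4 rising genes. Leaving it out thus had to enlarge their rises, and the larger values are no further support for them. Without contralateral replicate 4, the rises were 2.25 for Syt10 (adjusted p = 0.000607), 1.22 for Syt17 (0.00813), 1.34 for Doc2b (0.0225) and 0.79 for Syn2 (0.00947). The groups of these 4 genes were then fully apart, and the share of all genes with such groups in that setting is not given here. Without ipsilateral replicate 1, Doc2b (0.00689), Syn2 (0.0312) and Syt17 (0.0419) passed and Syt10 did not (0.0513). Without any other single array none of the 4 passed: adjusted p reached 0.0888 for Syt10, 0.120 for Syt17, 0.0797 for Doc2b and 0.1002 for Syn2.

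**Figure D2:**
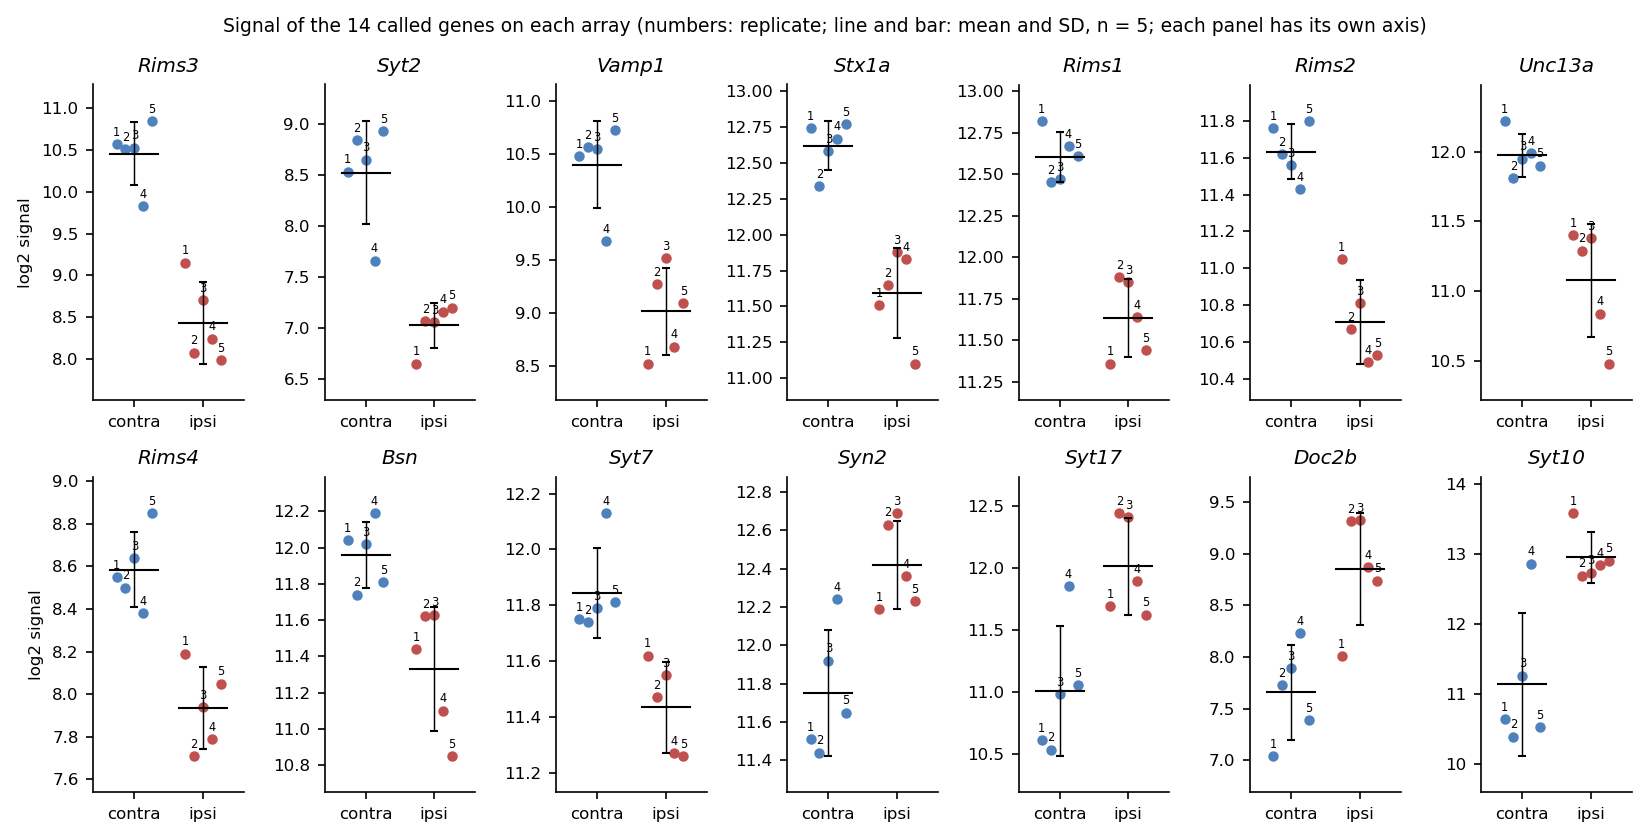
Log2 signal of the 14 called genes on each array, contralateral in blue and ipsilateral in red, with the replicate number beside each point and the mean ± SD of each side (n = 5). No ipsilateral point reaches the contralateral range in the 10 falling genes, while contralateral replicate 4 lies with the ipsilateral arrays in Syt10 (12.86), Syt17 (11.85) and Syn2 (12.24).

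Of the 4 SNARE genes, 2 fell and 2 did not pass. Stx1a encodes syntaxin 1A of the plasma membrane, and its ipsilateral replicates 1 to 5 read 11.51, 11.65, 11.88, 11.83 and 11.10, and contralateral replicates 1 to 5 read 12.74, 12.34, 12.58, 12.67 and 12.77. The highest ipsilateral array (11.88) lay below the lowest contralateral one (12.34), and Stx1a fell by 1.03 ± 0.14, or 2.04-fold (adjusted p = 0.00305). Vamp1 encodes synaptobrevin 1, a vesicle SNARE that is most abundant in brainstem, spinal cord and subsets of forebrain neurons: ipsilateral replicates 1 to 5 read 8.52, 9.27, 9.52, 8.68 and 9.09, and contralateral replicates 1 to 5 read 10.48, 10.57, 10.55, 9.68 and 10.73. It fell by 1.39 ± 0.23, or 2.61-fold (adjusted p = 0.00685), with contralateral replicate 4 the lowest of its side. The main forebrain vesicle SNARE, Vamp2 (10.21 ± 0.17 against 10.06 ± 0.13), and the plasma membrane SNARE Snap25 (18.18 ± 0.25 against 18.32 ± 0.17) differed by 0.15 (adjusted p = 0.404) and -0.13 (adjusted p = 0.589).

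None of the 5 SNARE regulators passed in limma, and at an unadjusted p under 0.05 1 was lower and 1 higher. Complexin 1 (Cplx1) stood at 14.62 ± 0.31 against 15.18 ± 0.25, a difference of -0.55 ± 0.16 (adjusted p = 0.0731), and it passed as lower under 7 of the 17 alternatives. Napb, which encodes the brain-enriched SNAP partner of NSF, stood at 15.87 ± 0.25 against 15.36 ± 0.35 (0.51 ± 0.17, adjusted p = 0.122). Complexin 2 (Cplx2, -0.22), the SNARE inhibitor tomosyn (Stxbp5, -0.21) and the disassembling ATPase Nsf (0.10) had adjusted p of 0.598, 0.334 and 0.592.

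Among vesicle proteins, only Syn2 of 7 passed. Synapsin I (Syn1) had a difference of -0.27 ± 0.13, synapsin III (Syn3) 0.22 ± 0.21, and synaptophysin (Syp), an abundant vesicle membrane protein, -0.15 ± 0.08. The SV2 glycoproteins ran from -0.28 ± 0.10 (Sv2a) through -0.16 ± 0.17 (Sv2b) to 0.44 ± 0.31 (Sv2c), with adjusted p of 0.122, 0.658 and 0.466. Sv2c was split within the ipsilateral side, with replicates 1 and 3 at 9.65 and 9.61 and the other 3 between 8.17 and 8.30. The mean signal of 8 striatal markers on ipsilateral replicates 1 to 5 was 7.55, 7.32, 8.47, 7.72 and 7.24, and 6.99 to 7.32 contralaterally. Replicate 4 thus had a higher striatal mean than replicate 1 but a lower Sv2c signal (8.21). Gad2 was also highest on ipsilateral replicates 1 and 3 (13.53 and 13.16, other ipsilateral arrays 11.81 to 11.92). The same held for the vesicular transporter gene Slc32a1 (11.96 and 11.14, others 9.97 to 10.24). Pvalb was instead lowest on these arrays (6.49 and 6.01, others 6.63 to 7.04). The part of the striatal and inhibitory neuron signals in the Sv2c values was not tested.

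The vesicular glutamate transporters load vesicles with glutamate, Slc17a7 (VGLUT1) mainly in cortical and hippocampal neurons and Slc17a6 (VGLUT2) mainly in thalamic and other subcortical neurons. None of the 3 passed in limma, and 1 was lower at an unadjusted p under 0.05. Slc17a7 stood at 14.22 ± 0.20 against 14.47 ± 0.19 (-0.25 ± 0.11, adjusted p = 0.247). Slc17a6 varied widely on both sides, from 8.50 to 10.31 ipsilaterally and from 8.88 to 10.27 contralaterally (-0.57 ± 0.34, adjusted p = 0.371). Slc17a8 (VGLUT3), found in scattered interneurons and in serotonergic and cholinergic cells, was lower on every ipsilateral array (5.51 to 5.57 against 5.63 to 5.88) by 0.20 ± 0.06 at a level close to the array medians (adjusted p = 0.103).

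The changes of related genes were compared within 14 pairs. The pairs were chosen with earlier results of these data known, and not always between nearest relatives, so their tests describe these pairs and are not independent evidence. For the 14 pairs of related members, the difference between sides in the within-array log2 difference was tested with an exact two-sided permutation test over all splits of the 10 arrays into 5 and 5, whose smallest p is 0.00794, and adjusted over the 14 pairs. An offset of a whole array cancels in this measure. A threshold of 0.05 was passed by 9 of the 14. Vamp1 changed by -1.53 ± 0.27 (SE) relative to Vamp2, Syt1 by 1.26 ± 0.29 relative to Syt2, Syt4 by -1.41 ± 0.20 relative to Syt17, and Syn1 by -0.94 ± 0.14 relative to Syn2. In these 4 pairs the ranges of both sides were fully apart (exact permutation p = 0.00794, adjusted p = 0.0278).

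Within the RIM genes, Rims3 fell by 1.06 ± 0.33 more than Rims1, and Rims4 by 0.28 ± 0.10 less than Rims2 (exact permutation p = 0.0238, adjusted p = 0.0370 for each). Bsn changed by -0.34 ± 0.11 relative to Pclo, Syt5 by 0.37 ± 0.08 relative to Syt7, and Doc2a by -1.56 ± 0.36 relative to Doc2b (exact permutation p = 0.0159, adjusted p = 0.0317 for each). The remaining 5 pairs did not pass: Syt10 against Syt3 (1.85 ± 0.56, exact permutation p = 0.0397, adjusted p = 0.0556), Unc13a against Unc13c (-0.76 ± 0.39, 0.121), Sv2b against Sv2c (-0.59 ± 0.39, 0.194), Cplx1 against Cplx2 (-0.33 ± 0.35, 0.402) and Slc17a7 against Slc17a6 (0.32 ± 0.36, 0.413).

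**Figure D3:**
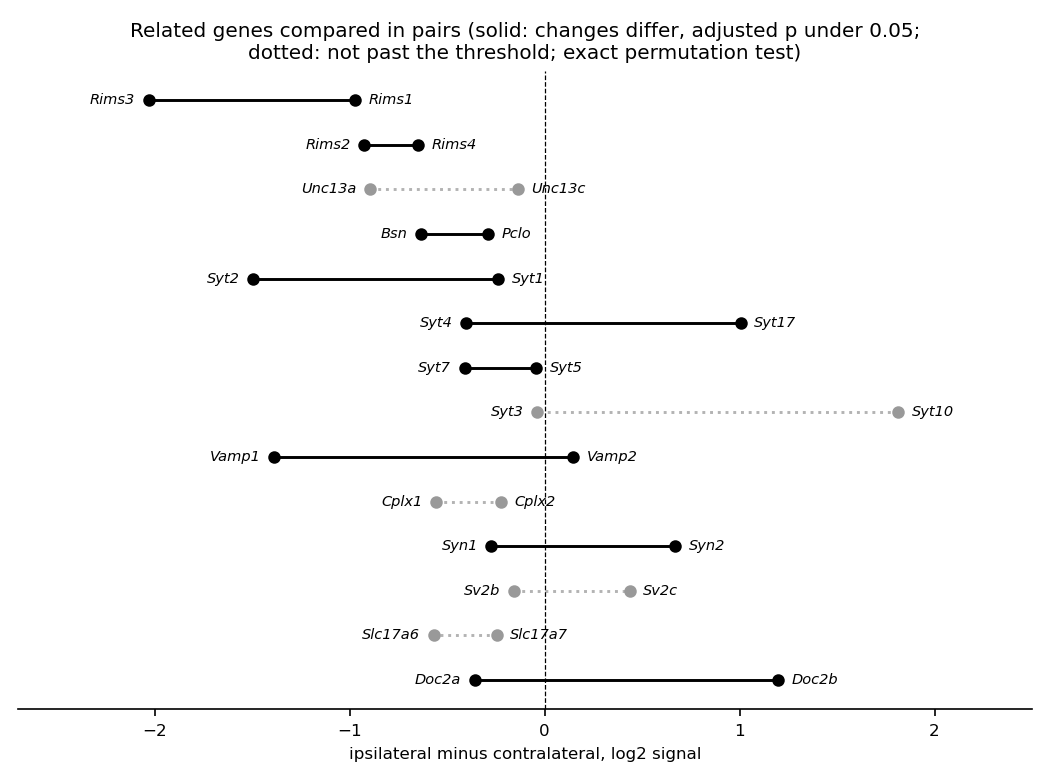
Ipsilateral minus contralateral difference in log2 signal of both genes of each of the 14 pairs, joined by a line that is solid where the 2 changes differed at an adjusted p under 0.05 (exact permutation test, n = 5 per side). In 4 of the 9 solid pairs (Syt4 and Syt17, Vamp1 and Vamp2, Syn1 and Syn2, Doc2a and Doc2b) the genes lie on opposite sides of 0.

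The wider presynaptic apparatus was taken from 6 lists, also chosen with earlier results of these data known, with 110 genes analysed here. Of the 110, 17 fell (15.5%), and none rose in limma, with 37 lower and 9 higher at an unadjusted p under 0.05. The count of rises was 2 without contralateral replicate 4 and 1 without ipsilateral replicate 1. Among 23 genes of priming and the active zone 5 fell: the Rab3 effector rabphilin, Rph3a (-1.36 ± 0.17, adjusted p = 0.00179), the vesicle-priming gene Cadps2 (-1.06 ± 0.21, 0.0168), the liprin Ppfia3 (-0.57 ± 0.07, 0.00161), the active zone-associated Git1 (-0.46, 0.00868) and the adaptor Lin7b (-0.36, 0.0156). Of 9 presynaptic calcium channel genes 3 fell: Cacna1a, the pore of the P/Q-type channel that long RIM proteins tether (-0.92 ± 0.12, 0.00197), the auxiliary subunit Cacnb4 (-0.93 ± 0.15, 0.00633) and Cacna2d3 (-0.81 ± 0.18, 0.0266).

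Of 13 further synaptotagmin and synaptotagmin-like genes 3 fell, Sytl2, a Rab27 effector (-1.62 ± 0.17, adjusted p = 0.000994), Syt16 (-0.71, 0.00496) and Syt13 (-0.69, 0.00552). Of 28 endocytosis and recycling genes 3 fell, the phosphoinositide phosphatase Synj2 (-0.91 ± 0.10, 0.00123), the endocytic adaptor Eps15 (-0.35, 0.0439) and β-synuclein, Sncb (-0.40, 0.0498). Of 18 other vesicle membrane genes 2 fell, Slc6a17, a vesicular amino acid transporter (-0.48, 0.0437), and synaptogyrin 1, Syngr1 (-0.32, 0.0184). Of 19 further SNARE genes and regulators 1 fell, Napa, the second SNAP partner of NSF, by 0.56 ± 0.08 (adjusted p = 0.00290), while its relative Napb had a positive difference of 0.51. The median differences of these lists ran from -0.20 (priming and active zone) to 0.03 (other vesicle membrane genes), beside 0.02 over all genes.

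**Figure D4:**
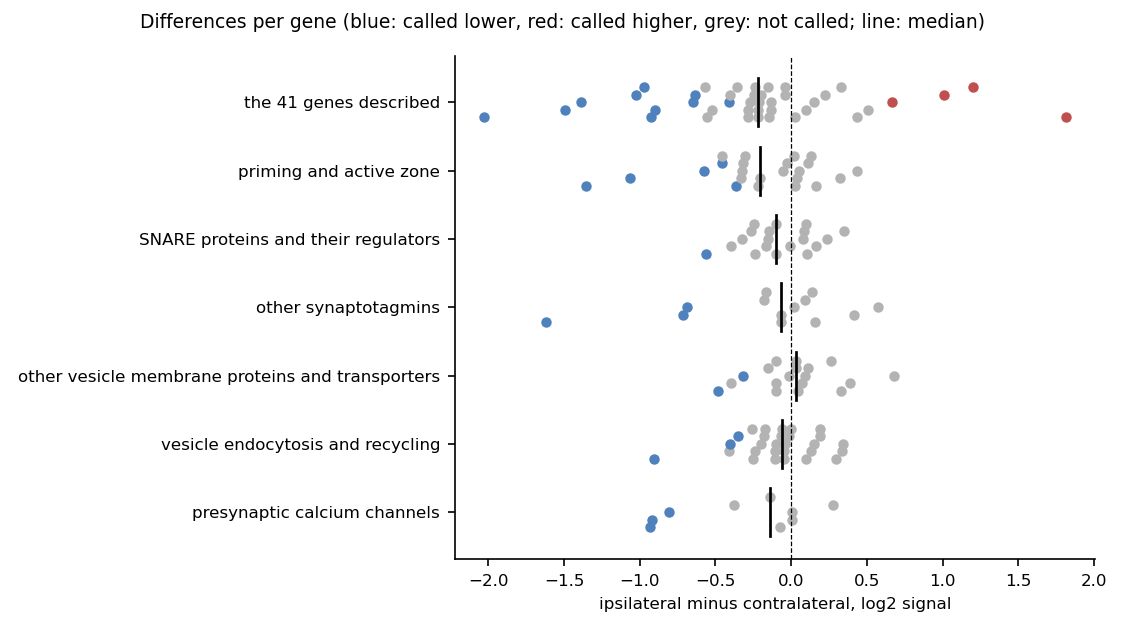
Ipsilateral minus contralateral difference in log2 signal per gene for the 41 release genes and for 6 lists of other presynaptic genes (110 genes), with the median of each list as a line. The 17 called genes of the other lists lie below 0, and the 4 called higher among the 41 lie at 0.67 to 1.81.

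Markers of neurons and of brain regions moved with side as well, and their part in the differences of the release genes was not tested. Of 11 pan-neuronal markers 4 fell, the nuclear neuronal marker Rbfox3 (-0.54 ± 0.10) and the neurofilament genes Nefl (-0.89), Nefm (-0.998) and Nefh (-0.96), and none rose (0 higher and 6 lower at an unadjusted p under 0.05 in limma). Their mean signal ranged from 11.75 to 12.18 ipsilaterally and 12.13 to 12.31 contralaterally. Of 13 neocortical layer markers 6 fell and 1 rose (8 lower and 1 higher at an unadjusted p under 0.05 in limma). Their means ranged from 9.71 to 10.09 ipsilaterally and 10.23 to 10.47 contralaterally. Of 14 ventral forebrain and hypothalamic markers 6 rose (10 higher and 0 lower at an unadjusted p under 0.05 in limma). Their means ranged from 7.01 to 7.86 ipsilaterally and 6.15 to 6.74 contralaterally. The mean levels of Calcr and Gal in that list lay below every array's median on both sides. Single arrays exceeded it, with Calcr at 5.05 on ipsilateral replicate 3 and Gal at 5.10 on contralateral replicate 4. Contralateral replicate 4, the contralateral array with the highest signals of Syt10, Syt17, Syn2 and Doc2b, had the highest ventral forebrain mean of its side.

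The glial lists showed other patterns. Of 7 oligodendrocyte markers 1 fell, all 7 differences were below 0 (median -1.19; 5 lower and 0 higher at an unadjusted p under 0.05 in limma), and means ranged from 10.16 to 11.29 ipsilaterally and 10.67 to 11.89 contralaterally. Of 11 microglial and macrophage markers none passed in limma (8 were higher and 0 lower at an unadjusted p under 0.05), and means ranged from 8.06 to 9.95 ipsilaterally and 7.71 to 8.36 contralaterally. Ipsilateral replicates 4 and 5, the arrays with the highest microglial means (9.95 and 9.63), were the 2 lowest of all 10 arrays in 4 of the 10 falling genes, Rims2, Bsn, Unc13a and Syt7. They were not in the others, and in Syt2 they were the 2 highest ipsilateral arrays (7.16 and 7.20). The part of the microglial signal in these values was not tested. Of 8 astrocyte markers 1 rose (5 higher and 1 lower at an unadjusted p under 0.05), with means from 10.50 to 11.51 ipsilaterally and 10.32 to 10.69 contralaterally. Of 6 vascular markers none passed in limma (2 higher and 1 lower at an unadjusted p under 0.05), and of 8 striatal markers none passed (4 higher and 0 lower). Of 8 hippocampal markers 1 rose, Wfs1 (2 higher and 0 lower at an unadjusted p under 0.05). Of 9 thalamic markers 2 fell, Ramp3 and Rora (1 higher and 2 lower at an unadjusted p under 0.05). The higher one was Calb2 (2.44, adjusted p = 0.108).

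**Figure D5:**
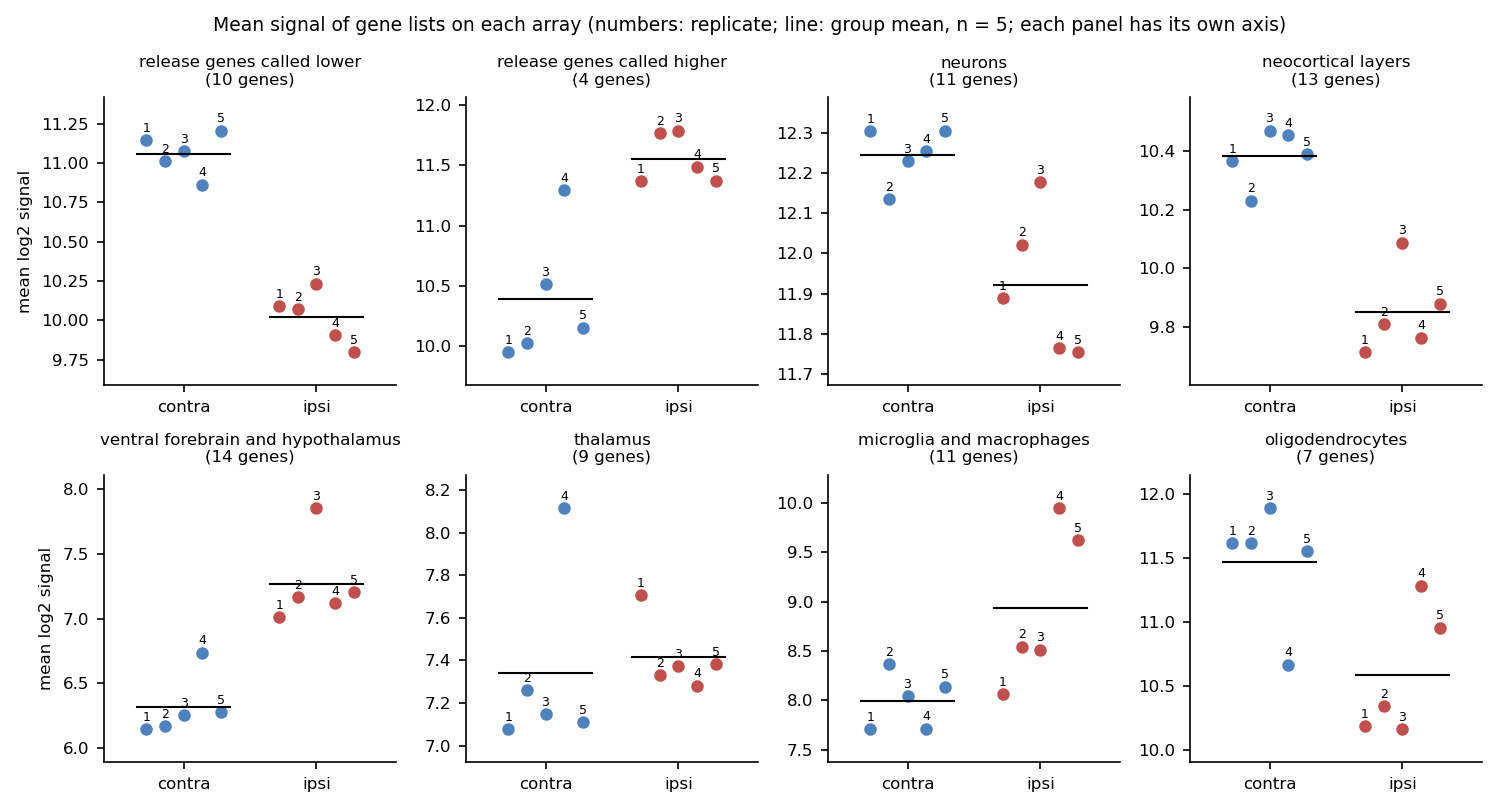
Mean log2 signal on each array of the 10 release genes called lower, the 4 called higher and 6 marker lists, contralateral in blue and ipsilateral in red, with replicate numbers and the group mean as a line (n = 5). Contralateral replicate 4 stands at 11.29 for the 4 higher genes, next to the ipsilateral range of 11.37 to 11.79, and at 10.86 for the 10 lower genes, well above the ipsilateral range of 9.80 to 10.23.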

How the data were processed

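Ipsilateral and contralateral tissue was compared on 10 arrays, 5 per side. The authors deposited log2 signals, 1 column per array, and the submitters' processing notes name Transcriptome Analysis Console 4.0. Values ran from 1.97 to 19.93, from which the log2 scale was inferred. How background and arrays were normalized, and on which build, is not stated in the sources used here. Of 65956 rows, 30604 named 1 gene symbol, 2146 named several and 33206 had no listed name. A match to the RefSeq gene table of GRCm38.p6 by Entrez identifier was found for 22818 of the 30604. The brightest row per gene by 10-array mean was kept, which gave 30142 genes.

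Sides were compared in limma 3.58.1 (R 4.3.3) with lmFit and eBayes at default settings, no covariates, and Benjamini-Hochberg adjustment over all genes, two-sided, at 0.05. "Fell" and "rose" are used of genes past that threshold. The steps were tested on simulated data. The members and lists were chosen with earlier results of these data known. Every called member is given in full, the 6 uncalled members with the largest absolute statistic are named with values, and in the other presynaptic lists every called gene is named. Adjusted p-values in the text are from limma unless a permutation test is named. The number of arrays limits the precision.

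The labels do not say that replicate numbers pair the samples, and 2 of 5 same-numbered pairs had correlated deviations over 0.1 (range -0.399 to 0.259), so the samples were analysed as unpaired. Alternatives were centring each array on its median, quantile normalization, the replicate number as a block, trended and robust variance, leaving out genes below the median level, the mean of a gene's rows, and each array left out in turn. Leaving out ipsilateral replicate 1 and contralateral replicate 4 together was added after seeing the data.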

Additional observations from a re-analysis of the deposited data

Results flagged for a closer look

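In groups of 5, an array was singled out where its gap to the nearest other array exceeded 0.710 of the group's range (Dixon's 95% value), which chance gives in about 1 in 20 groups. Of the 82 groups of the 41 genes, 7 held such an array. Contralateral replicate 4 was the array in 3: it was low for Vamp1 (9.68, others 10.48 to 10.73) and high for Syt7 (12.13, others 11.74 to 11.81) and Unc13c (8.90, others 8.52 to 8.61). Ipsilateral replicate 1 was the array in 3: it was low for Syt2 (6.65, others 7.06 to 7.20) and high for Syt10 (13.58, others 12.69 to 12.90) and Syt12 (7.94, others 7.17 to 7.30). Contralateral replicate 2 was low for Syt1 (17.39, others 17.72 to 17.77).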

How the results depend on the processing

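Of the 41 genes, 8 to 15 fell and 0 to 5 rose when each array was left out in turn. Their median difference ran from -0.28 to -0.19, and over all genes 740 to 1607 fell and 111 to 760 rose. Of the other presynaptic genes 11 to 24 fell and 0 to 2 rose, and 7 to 10 of the 14 pairs passed. Over all genes, rises numbered 760 without ipsilateral replicate 1, and 111 to 185 without contralateral replicate 1, 2, 3 or 5 or ipsilateral replicate 5. Falls numbered 740 to 835 without contralateral replicate 1, 3 or 5. Without contralateral replicate 1, 11 other presynaptic genes fell.

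With each array centred on its median, 17 of the 41 genes fell, 29 of the other presynaptic genes fell, and over all genes 2623 fell and 232 rose, so that rises made up 8.13% of calls against 22.0% on the deposited values. All 14 calls were kept with it, and 7 further falls appeared, among them Cplx1 (-0.63) and Syt12 (-0.60). With quantile normalization rises made up 14.6% of calls, and Bsn (adjusted p = 0.0567) and Syt7 (0.0673) no longer passed in limma, while Cplx1 and Slc17a8 passed as lower. With the replicate number as a block, 1 of the 41 genes rose, 11 other presynaptic genes fell, and 769 genes fell and 177 rose in all. The calls of Bsn (adjusted p = 0.0792), Syt7 (0.120), Syt10 (0.0679), Syt17 (0.0966) and Syn2 (0.0632) ended with the block, Cplx1 and Syt12 passed as lower, and 1 of 5 ipsilateral arrays correlated best with its own number. Without the genes below the median level, 1 other presynaptic gene rose. Without ipsilateral replicate 1 and contralateral replicate 4 together, 688 genes and 5 other presynaptic genes rose, Bsn ended (adjusted p = 0.0861), and Syt12, Cplx1, Sv2a and Napb passed. The cause of these changes was not tested. No called member changed sign under any of the 17 alternatives, and 6 of the 21 uncalled members that were not among the 6 named with full statistics did. Signal near the array medians limits Slc17a8.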
